A study of Mus musculus with 6 samples.

Results

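Classical type I interferon effectors are genes that nearly every cell type switches on after interferon alpha or beta and whose products act on viruses or on the interferon signal itself. The set was given as 10 gene symbols, Mx1, Mx2, Rsad2, Isg15, Usp18, Cmpk2, Xaf1, Rtp4, Bst2 and Ifi44, by name and not by a threshold on measured values, although with earlier results of these data known. Of these, 9 had a probe set of their own among the 22180 genes measured, each exactly 1 probe set, and the expression of Ifi44 was not analysed here. All 9 were higher in macrophage cultures that had received an antibody against CSF1R than in cultures with control IgG, by 1.55-fold to 3.36-fold, and in each of the 9 every antibody array lay above every IgG array. Of all 22180 genes, 9928 had a higher mean with the antibody by any amount, and 16.6% had the same separation of arrays.

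CSF1R is the receptor for M-CSF and IL-34, the growth factors that macrophages need to survive and mature. The macrophages were grown from bone marrow of 3 C57BL/KaLwRij mice, the strain that hosts the 5TGM1 myeloma model, in medium with M-CSF over 7 days. All cultures, controls included, then spent a night with 5TGM1-luc cells, a mouse myeloma line that carries luciferase, before they received 0.5 nM of the mouse CSF1R antibody (named CS7 in the sample titles) or IgG over 3 days, and all were washed 4 times before RNA was taken. Cultures without myeloma cells, or with neither antibody nor IgG, were not analysed here, and no genotype is given beyond the strain. Expression was read on 6 whole-transcript mouse arrays, 3 with antibody and 3 with IgG. Which mouse gave which array is not stated. Each p-value therefore rests on how far the 3 samples of a group lie from one another, moderated by the spread over all genes. That spread may be technical, and the number of arrays limits the precision.

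Values are log2 of the deposited intensities, and a difference is the antibody mean minus the IgG mean. Array medians over all probe sets lay between 4.88 and 4.95, and Pearson correlations across probe sets were 0.992 to 0.993 within groups and 0.984 to 0.985 between them. A mean of 4.92, the 95th percentile of the means of 1390 olfactory and vomeronasal receptor genes, served as a guide to background that was chosen with the data in view. All 14 measured macrophage markers lay above this guide in both groups. With limma and Benjamini-Hochberg adjustment over all genes at 0.05, 12.5% of genes were called higher with the antibody and 16.0% lower, so that 43.8% of calls were higher, and 57.7% were under cyclic loess scaling. In 16.6% of genes all antibody arrays lay above all IgG arrays, and 2.89% of genes were called and at least 2-fold higher.

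Type I interferons are secreted proteins that bind a receptor made of the chains IFNAR1 and IFNAR2. The receptor's kinases JAK1 and TYK2 then phosphorylate STAT proteins such as STAT2, which acts with IRF9 in the complex ISGF3. ISGF3 enters the nucleus and binds interferon-stimulated response elements before the effector genes, while the related interferon gamma acts mainly through gamma-activated sequences. Macrophages make interferon after sensing microbial nucleic acids or lipopolysaccharide, respond to it strongly, and can keep many of these genes at a low level without infection.

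The DNA before the effector genes is shown because interferon-regulated factors are known to bind short motifs there. Sequence was not used to choose the genes, but the list is of interferon effectors. The shares with a match therefore lend no separate support to the array results. RefSeq promoter windows of 300 bases, 250 before to 50 after the start, were held for 6 of the 10 genes (GRCm38.p6): Rsad2, Isg15, Cmpk2, Xaf1, Bst2 and Ifi44. For Ifi44 the sequence alone was examined and not the expression. Both strands were searched for the response element core GAAANNGAAA, for the shorter IRF core AANNGAAA, which lies within every match of the former, and for the gamma-activated sequence TTCNNNGAA. The response element core was found in 3 of the 6, against 3.44% of all 32851 promoter windows, the IRF core in 5 of the 6 against 23.9%, and the gamma-activated sequence in 1 of the 6 against 8.3%. The 250 bases before the starts of the 5 genes that were also measured follow, on each gene's strand, with capitals marking the response element core in Isg15, Rsad2 and Bst2 and the IRF core in Xaf1, and with none marked in Cmpk2.
Isg15: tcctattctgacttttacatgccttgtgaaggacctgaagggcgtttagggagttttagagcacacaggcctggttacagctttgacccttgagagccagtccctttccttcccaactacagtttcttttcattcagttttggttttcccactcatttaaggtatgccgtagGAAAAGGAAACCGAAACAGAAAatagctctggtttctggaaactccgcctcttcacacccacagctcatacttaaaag
Rsad2: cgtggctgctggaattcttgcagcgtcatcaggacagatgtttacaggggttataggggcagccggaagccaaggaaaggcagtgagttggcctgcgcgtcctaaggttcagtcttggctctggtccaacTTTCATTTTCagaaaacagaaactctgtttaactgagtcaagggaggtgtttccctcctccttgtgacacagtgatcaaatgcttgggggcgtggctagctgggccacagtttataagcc
Bst2: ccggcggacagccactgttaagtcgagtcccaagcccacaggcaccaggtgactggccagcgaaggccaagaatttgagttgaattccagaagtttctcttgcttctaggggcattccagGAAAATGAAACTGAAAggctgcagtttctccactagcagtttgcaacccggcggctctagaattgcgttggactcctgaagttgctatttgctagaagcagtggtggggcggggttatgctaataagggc
Xaf1: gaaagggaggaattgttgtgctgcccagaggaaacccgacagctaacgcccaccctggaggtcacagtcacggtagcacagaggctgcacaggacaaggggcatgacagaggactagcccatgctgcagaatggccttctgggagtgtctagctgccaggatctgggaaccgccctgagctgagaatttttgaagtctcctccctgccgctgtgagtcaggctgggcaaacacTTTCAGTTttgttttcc
Cmpk2: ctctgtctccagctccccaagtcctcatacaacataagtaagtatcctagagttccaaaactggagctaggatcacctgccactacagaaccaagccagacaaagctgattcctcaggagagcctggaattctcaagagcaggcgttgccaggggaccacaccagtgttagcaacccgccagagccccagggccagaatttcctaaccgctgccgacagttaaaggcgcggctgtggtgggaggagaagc

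These sequences are chr4:156200819-156201068 (minus strand) for Isg15, chr12:26456453-26456702 (minus) for Rsad2, chr8:71537473-71537722 (minus) for Bst2, chr11:72301379-72301628 (plus) for Xaf1 and chr12:26468965-26469214 (plus) for Cmpk2. In Isg15 the 3 core matches overlap in 1 run that ends 56 bases before the start. Bst2 has 2 overlapping matches, the nearer ending 114 bases before the start, and its only gamma-activated sequence match ends 127 bases before it and overlaps that run. The Rsad2 match lies on the opposite strand, 110 bases before the start. A match is a description of letters and not a site shown to be bound, and the absence of a match in Cmpk2 concerns this window only.

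**Figure D1:**
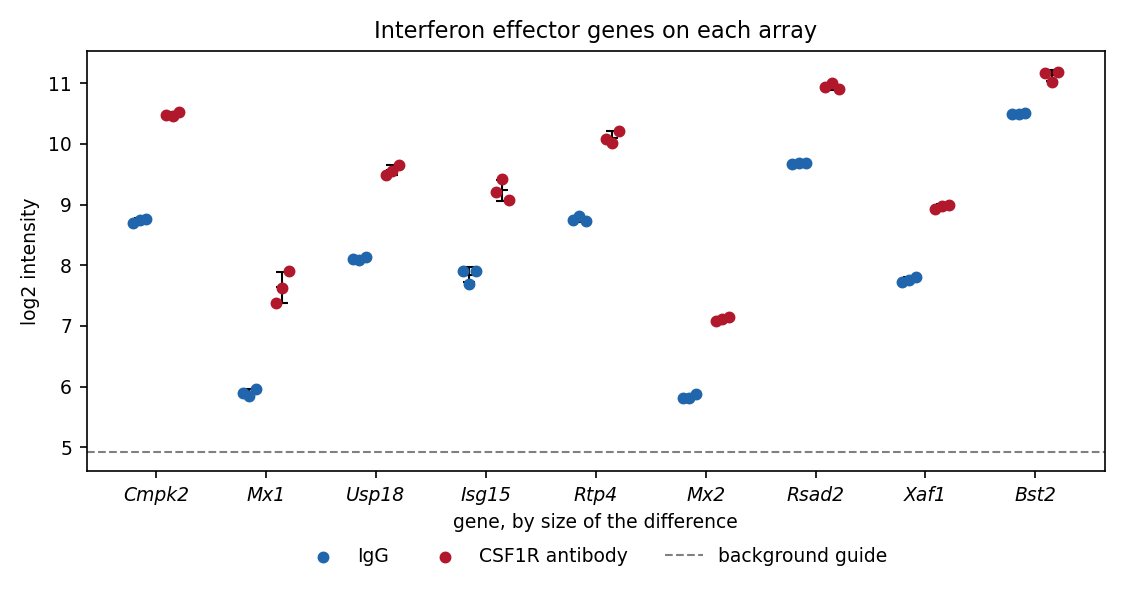
Log2 intensity (vertical axis) of the 9 measured effector genes on each of the 6 arrays, with genes ordered by their difference; dots are arrays, black bars are the mean ± SD of 3 arrays, and the dashed line is the background guide of 4.92. In each gene the 3 antibody arrays lie above the 3 IgG arrays, with the widest spread for Mx1 with the antibody (SD 0.26).

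The ISG15 system was represented by the modifier and by its protease. ISG15 is a ubiquitin-like protein that is attached to newly made proteins, viral ones among them, and can also be secreted. Isg15 read 9.21, 9.42 and 9.07 on antibody replicates 1 to 3 and 7.91, 7.70 and 7.91 on IgG replicates 1 to 3. The groups were separated by 1.16, and the means of 9.23 ± 0.18 and 7.84 ± 0.12 (SD, n = 3 each) differed 2.63-fold (log2 1.40, SE 0.11, limma adjusted p = 0.00017). USP18 removes ISG15 from its targets and also binds the IFNAR2 chain, where it restrains the signal. Usp18 read 9.48, 9.56 and 9.65 with the antibody and 8.11, 8.08 and 8.13 with IgG. The lowest antibody array was 1.35 above the highest IgG array, and the rise was 2.75-fold (log2 1.46, SE 0.06, limma adjusted p = 1.3e-05).

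Of the 5 measured genes that attach ISG15, 4 rose and 1 did not pass the test. Uba7, the activating enzyme, rose by 1.28 (log2, SE 0.07). Ube2l6, the conjugating enzyme, rose by 1.20 (SE 0.08), and Herc6, the main mouse ligase, by 1.16 (SE 0.06). Trim25, a ligase that also acts on the RNA sensor RIG-I, rose by 0.45 (SE 0.06). Arih1, a ligase with broader tasks, had a difference of -0.07 with a 95% interval of -0.19 to 0.06 (limma adjusted p = 0.43). The protease, the modifier and the 3 enzymes that act in sequence on it were higher on the same arrays.

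Rsad2 and Cmpk2 lie next to each other in the mouse genome with no gene between them. RSAD2 (viperin) turns CTP into a chain-terminating nucleotide that stops viral polymerases, and CMPK2 is a mitochondrial kinase that supplies the CTP precursor. Rsad2 read 10.93, 11.01 and 10.90 with the antibody and 9.66, 9.68 and 9.68 with IgG. The IgG arrays differed by an SD of 0.01 and the antibody arrays by 0.06, and the groups lay 1.21 apart. The rise of Rsad2 was 2.41-fold (log2 1.27, SE 0.05, limma adjusted p = 1.2e-05). Cmpk2 read 10.47, 10.46 and 10.53 with the antibody and 8.70, 8.74 and 8.77 with IgG. This was the largest rise of the 9 genes, at 3.36-fold (log2 1.75, SE 0.05, limma adjusted p = 8.1e-06), and ranked 81 among all genes. The 95% interval for Cmpk2, 1.63 to 1.86, did not overlap that for its neighbour, 1.15 to 1.39.

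MX proteins are dynamin-like GTPases, of which mouse MX1 works in the nucleus against influenza viruses and MX2 in the cytoplasm against viruses such as vesicular stomatitis virus. The RefSeq table for C57BL/6J lists both genes as transcribed pseudogenes, as many inbred laboratory strains carry defective copies, and which alleles the C57BL/KaLwRij cells carry was not tested. Mx1 read 7.38, 7.63 and 7.90 with the antibody and 5.89, 5.85 and 5.96 with IgG. The antibody arrays spread more than in any other of the 9 genes (SD 0.26), yet the lowest stood 1.42 above the highest IgG array. The rise was 3.33-fold (log2 1.73, SE 0.13, limma adjusted p = 0.00014). Mx2 read 7.08, 7.11 and 7.15 with the antibody and 5.81, 5.81 and 5.87 with IgG. Its groups were tight (SD 0.04 in both) and the rise was 2.44-fold (log2 1.29, SE 0.05, limma adjusted p = 1.2e-05). Mx1 and Mx2 are close on 1 chromosome, with 2 annotated genes between them, and whether probes for one also read RNA of the other was not tested.

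Bst2 had the highest p and the smallest rise of the 9. BST2 (tetherin) holds budding enveloped viruses on the cell surface, and it is also known as the myeloma antigen HM1.24 and as a marker of plasmacytoid dendritic cells. Bst2 read 11.17, 11.02 and 11.19 with the antibody and 10.49, 10.49 and 10.51 with IgG. The groups did not overlap, with 0.51 between them, and the rise was 1.55-fold (log2 0.63, SE 0.06, limma adjusted p = 0.00041). The share of the signal that came from myeloma cells was not tested.

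Xaf1 and Rtp4 have other roles. XAF1 binds the caspase inhibitor XIAP and promotes cell death after interferon. Xaf1 read 8.92, 8.98 and 8.99 with the antibody and 7.72, 7.76 and 7.81 with IgG, a rise of 2.29-fold (log2 1.20, SE 0.05, limma adjusted p = 1.5e-05) with the groups 1.11 apart. Its partner Xiap differed by -0.05 (95% interval -0.19 to 0.08, limma adjusted p = 0.57). RTP4 is a transporter-like protein that restrains flaviviruses and interferon signalling. Rtp4 read 10.08, 10.01 and 10.22 with the antibody and 8.74, 8.82 and 8.73 with IgG, a rise of 2.54-fold (log2 1.34, SE 0.07, limma adjusted p = 2.7e-05). None of its relatives Rtp1, Rtp2 and Rtp3 passed the test (differences -0.01, 0.11 and -0.12), and the means of all 3 were under the background guide with the antibody and with IgG.

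The 9 rises had a median of 1.34, against -0.02 over all genes, and 8 of the 9 were at least 2-fold. Read beside the background given above, 9 of 9 called higher stands against 12.5% of all genes, 9 of 9 without overlap against 16.6%, and 8 of 9 at least 2-fold higher against 2.89%. In the order Cmpk2, Mx1, Usp18, Isg15, Rtp4, Mx2, Rsad2, Xaf1 and Bst2, the 95% intervals of neighbours overlapped in 7 of 8 pairs. Only Xaf1 and Bst2, 0.57 apart, did not overlap. Within the antibody group replicate 3 was highest for 7 of the 9 genes and replicate 2 for 2. The antibody SD was larger than the IgG SD in 7 of the 9, against 51.4% of all genes. Isg15, Rsad2 and Bst2 each had the same value on 2 IgG arrays (equal to 9 decimals of log2), which none of the 9 had with the antibody. Over all probe sets, up to 6.88% of values were identical between 2 arrays. Such ties also occurred with the antibody in other genes, Csf1r among them.

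**Figure D2:**
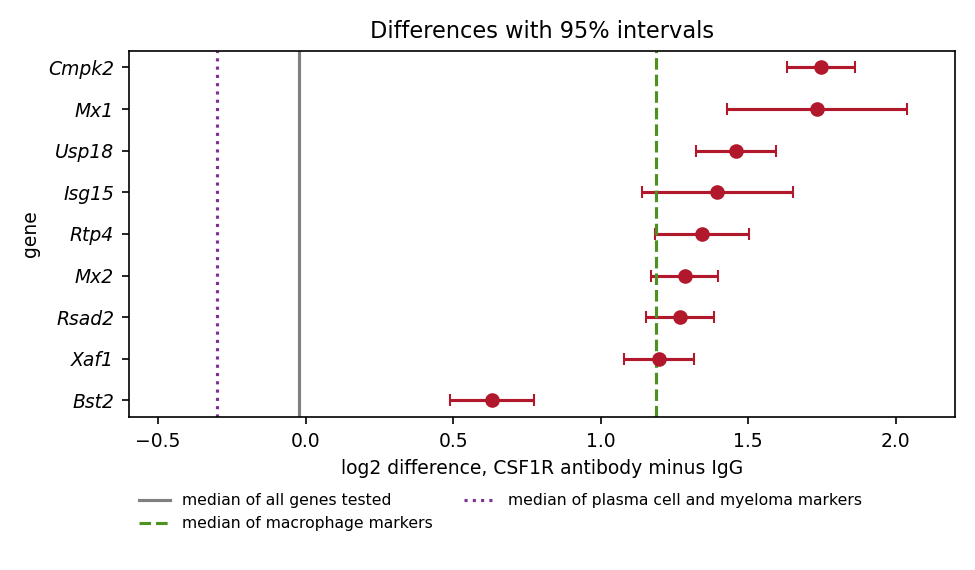
Log2 differences (antibody minus IgG, horizontal axis) of the 9 effector genes with limma's 95% intervals, and vertical lines at the medians of all genes (-0.02), of macrophage markers (1.19) and of plasma cell and myeloma markers (-0.30). All 9 intervals lie above 0, and Bst2 at 0.63 is the only one to the left of the macrophage line.

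Most type I ligand genes were near background on these arrays. Of 16 measured, 11 lay below the guide in both groups, 1 rose and 1 fell. Ifnb1, the interferon most often made first, read 3.01, 3.24 and 2.89 with the antibody and 2.94, 2.95 and 2.74 with IgG, below the guide on all arrays (difference 0.17, 95% interval -0.08 to 0.42, limma adjusted p = 0.31). Ifna7 rose by 0.52 (SE 0.10, limma adjusted p = 0.010). Ifnab fell by 0.31 with both means below the guide, and its call was lost without antibody replicate 1 (limma adjusted p = 0.052), IgG replicate 1 (0.050) or IgG replicate 2 (0.069). None of 3 type II and III ligand genes passed. The secreted proteins were not measured.

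Of 6 interferon receptor chains, 4 rose and none fell. Ifngr1 and Ifngr2, the gamma receptor's chains, rose by 1.06 (SE 0.06) and 0.72 (SE 0.05). Il10rb, which interferon lambda and IL-10 receptors share, rose by 0.68 (SE 0.05). Ifnar2, which binds type I interferon most tightly, rose by 0.29 (SE 0.07, limma adjusted p = 0.016), but not without antibody replicate 1 (0.057) or IgG replicate 1 (0.050). Ifnar1 had a difference of 0.14 (95% interval 0.03 to 0.24, limma adjusted p = 0.063). It passed with an intensity trend (0.0079), with cyclic loess (0.0071) and with either filter on low signal (0.035 and 0.017). Ifnlr1, the lambda receptor's own chain, lay below the guide in both groups.

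Of 5 measured kinases and ISGF3 parts, 3 rose. Jak1 rose by 1.33 (SE 0.04), Stat2 by 1.24 (SE 0.05) and Irf9 by 0.84 (SE 0.05). Tyk2 had a difference of -0.04 (95% interval -0.16 to 0.08, limma adjusted p = 0.62), and Jak2, which serves the gamma receptor, 0.20 (95% interval 0.04 to 0.36, limma adjusted p = 0.069). Jak2 passed with an intensity trend (0.029), cyclic loess (0.0064), both signal filters (0.045 and 0.023) and without antibody replicate 1 (0.045). Among 12 measured genes of interferon induction and restraint, 6 rose and 1 fell. Irf7, which amplifies interferon gene transcription, rose by 1.27 (SE 0.04), and Socs3, an inhibitor of cytokine receptors, by 1.26 (SE 0.08). Samhd1, a dNTP hydrolase, rose by 0.89 (SE 0.05), and the gene that fell was Ptpn2, a phosphatase that acts on JAK1 (-0.34, SE 0.04).

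A list of 53 other type I response genes shared some genes with the lists above. Of its 48 measured genes, 43 rose, none fell and 5 did not pass, with a median of 1.18. Without the shared genes, 37 of 41 measured rose, none fell and the median was 1.15. Ifit1, which binds viral RNA ends, had the largest rise of the list (1.85, SE 0.05). It was followed by Epsti1 (1.78, SE 0.05), Parp12, an antiviral ADP-ribosyltransferase (1.73, SE 0.06), and Phf11d (1.70, SE 0.10). The 5 that did not pass, looked up after their values were seen, were Isg20 (-0.03), Nmi (-0.02), Ifi44l (0.09), Zc3hav1 (0.15) and Ifit3 (0.34). Ifi44l, the gene next to Ifi44, lay below the guide in both groups. Zc3hav1 passed with cyclic loess (limma adjusted p = 0.023), and Ifit3 passed above the 50th percentile of signal (0.036) or without antibody replicate 3 (0.047). With each gene counted once over all pathway lists and the effectors left out, 55 of 88 rose, 2 fell and the median was 0.69.

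**Figure D3:**
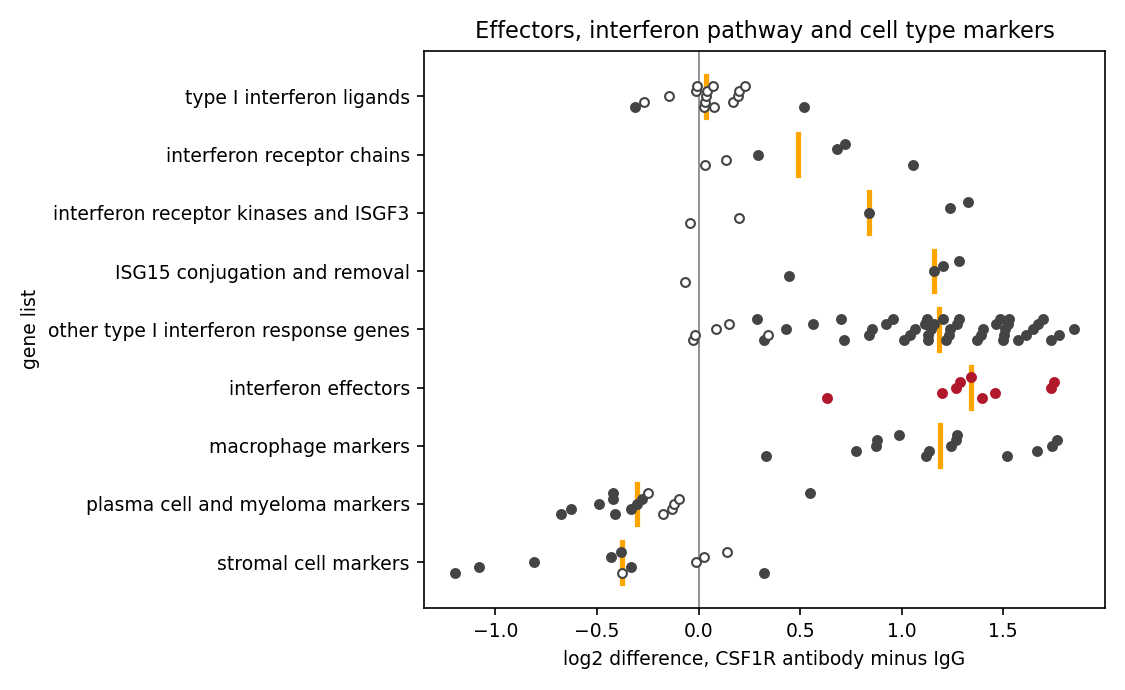
Log2 difference (antibody minus IgG, horizontal axis) of each measured gene in 9 lists (vertical axis); filled dots passed limma's test, open dots did not, and orange bars are list medians. Genes that are in several lists are drawn in each. The medians of the 9 effectors (red, 1.34) and of the other response genes (1.18) lie to the right of that of the type I ligands (0.04).

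None of 9 relatives and partners of the effectors (median -0.05) passed the test, among them Xiap, the Rtp genes and Ifi44l given above. Cmpk1, the cytosolic kinase related to CMPK2, differed by -0.17 (95% interval -0.35 to 0.02, limma adjusted p = 0.18). The dynamins Dnm1, Dnm2 and Dnm3, related to MX proteins, differed by -0.08, 0.14 and -0.12. Dnm2 (limma adjusted p = 0.083) passed with an intensity trend (0.023), cyclic loess (0.016) and above the 50th percentile (0.026), and Dnm3 fell without antibody replicate 1 (-0.30, limma adjusted p = 0.011).

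Macrophage markers rose as the effectors did, while most plasma cell and stromal markers fell. All 14 macrophage markers rose, with a median of 1.19 and list means of 10.81 to 10.85 with the antibody and 9.62 to 9.66 with IgG. Tlr2 (1.77), Cd14 (1.74), Maf (1.67) and C1qa (1.52) rose most, and Csf1r itself, the antibody's target, rose by 1.12 (SE 0.05). Of 15 plasma cell and myeloma markers, 9 fell and 1 rose, with list means of 8.71 to 8.79 against 8.997 to 9.051. The B-cell factor genes Eaf2 and Pou2af1 fell by 0.68 and 0.63, while Slamf7 rose by 0.55, and Tnfrsf17 and Cd79a lay below the guide. Of 11 stromal markers 6 fell and 1 rose, with list means of 5.81 to 5.84 against 6.16 to 6.25, Acta2 (-1.20) and Postn (-1.08) furthest. In RNA from a mixed culture, fewer cells of a type and less RNA per cell cannot be told apart. The part of cell makeup in the effectors' rise was not tested.

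Against the macrophage median, Cmpk2 (+0.56), Mx1 (+0.55) and Usp18 (+0.27) stood furthest above, Xaf1 stood at +0.01, and Bst2 at -0.56 was below. Cmpk2 rose more than 13 of the 14 markers, Xaf1 more than 7 and Bst2 more than 1. Of the plasmacytoid dendritic cell markers, 3 of 11 rose and 2 fell. Those that rose were Tlr9 (1.90), Tlr7 (1.81) and Irf8 (1.73), genes that macrophages also use, and which cells gave their signal was not tested. Siglech, Ccr9, Spib and Klk1 lay below the guide in both groups. The 2 that fell were Cox6a2 (-0.36) and Tcf4 (-0.15, limma adjusted p = 0.035), the latter not followed under other settings. Both lay above the guide in both groups. So did Ly6d (-0.12) and Pacsin1 (-0.15), which did not pass. List means were 6.54 to 6.62 with the antibody and 6.12 to 6.21 with IgG. Of 10 T and NK cell markers only Cd4 rose (2.00), and Cd3e, Cd3d and Cd3g lay below the guide, with list means of 4.43 to 4.54 against 4.23 to 4.34. None of 9 neutrophil markers passed, with list means of 4.19 to 4.21 against 4.18 to 4.22, and Ly6g lay below the guide.

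**Figure D4:**
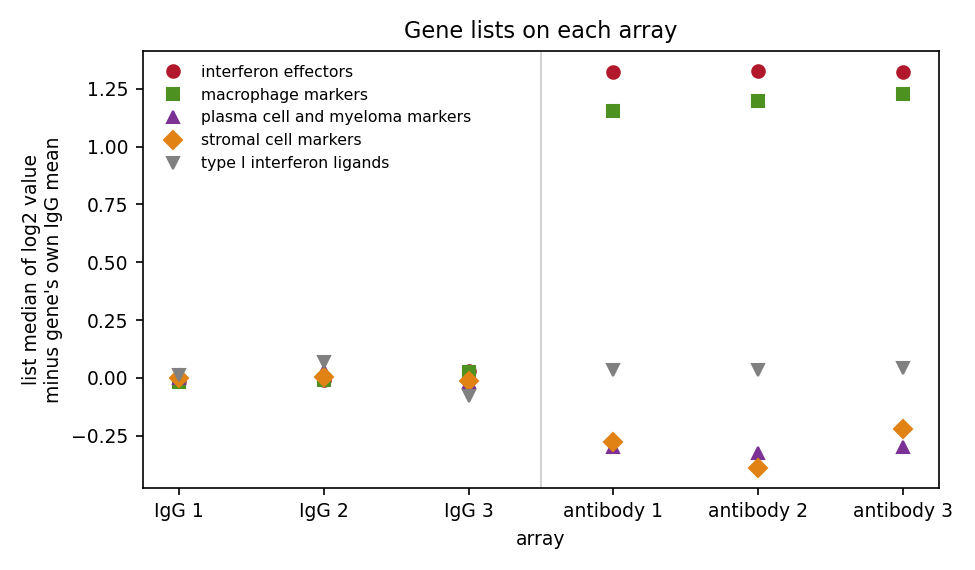
Median over each list of log2 intensity minus each gene's own IgG mean (vertical axis) on each of the 6 arrays, for 5 lists. On the antibody arrays the effectors lie at 1.32 to 1.33 and macrophage markers at 1.15 to 1.23, while plasma cell and myeloma markers lie at -0.32 to -0.30 and type I ligands at 0.03 to 0.04.

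Predicted genes (Gm and Rik symbols) and small RNAs (Mir and Snor symbols) were left out of the search for genes with similar values. Among the rest outside the set, the 8 genes nearest to the effectors' median profile over the 6 arrays had root mean square distances of 0.014 to 0.035 (log2). Nearest was Jak1 (0.014), the kinase of both type I and type II interferon receptors, with a difference of 1.33. The others were Cmtm3, Vsir, which encodes the checkpoint protein VISTA, Stap1, Dbp, a circadian transcription factor, Lrp12, Slfn2 of the schlafen family, and Ndst2. Of the 8, 1 was in the pathway lists. Their differences ran from 1.29 to 1.34, and the likeness is over 6 arrays in 2 groups only.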

How the data were processed

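Per the labels, RNA of 6 cultures, 3 with CSF1R antibody and 3 with IgG, was hybridised to whole-transcript mouse arrays (GeneChip Mouse Gene 2.0 ST). The deposited values are intensities per probe set, not on a log scale. The submitters' processing notes name RMA and limma, with no version and no role. The genome build and the level at which probes were summarised are not stated. RMA as usually run equalises distributions across arrays, so a shift of most genes would be hidden, and it tends to compress fold changes.

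Log2 was taken. Of 41345 probe sets, the platform annotation gave 23521 a single symbol, 1814 several and 16010 none. Only the first kind was used, with the brightest probe set for the 1082 genes that had more than 1, and low signal was not filtered. The test was limma's (version 3.58.1, R 4.3.3, lmFit and eBayes), adjusted by Benjamini-Hochberg over 22180 genes, at 0.05. The members and lists were chosen with earlier results of these data known, the lists from textbook knowledge. The rule for naming took all 10 effectors, receptor chains, kinases, ISGF3 parts, ISG15 conjugation genes, Ifnb1, Csf1r and relatives. From each other list it allowed up to 4 called genes by size of change or, with no call, the 2 of lowest p. The 8 genes nearest in profile were added. Some genes outside this rule were named as well, among them Ptpn2, Tcf4, and markers and response genes that did not pass. Motifs were searched in RefSeq promoter windows (GRCm38.p6), and RefSeq gene order served only to find neighbours. The fit was tested on simulated data. The settings varied were the variance model (trend, robust), array weights, scaling (median centring, cyclic loess), a signal filter at the 25th or 50th percentile, averaging of probe sets, a threshold of 0.01, a replicate block and single arrays left out. Same-numbered arrays did not deviate together (correlations 0.031, -0.053 and 0.003), so the numbers were not used to pair them. Figures were drawn with matplotlib 3.10.9 in Python 3.11.15.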

Additional observations from a re-analysis of the deposited data

Results flagged for a closer look

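Probe sets with several gene symbols or none were left out of the comparison. Among them, 57 had all 3 antibody values at least 2-fold above all 3 IgG values. They were picked out because they show a signal in data that the comparison did not use, and they were not assigned to genes.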

How the results depend on the processing

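The 9 effectors were called higher under all 16 alternatives, with differences from 0.60 to 1.86 and a highest limma adjusted p of 0.0035 (Bst2 without IgG replicate 1). Their median difference of 1.34 became 1.46 with cyclic loess and ranged from 1.29 to 1.35 when 1 array was left out. The count of pathway genes that fell, 2, became 1 with the filters at the 25th and 50th percentile and with an adjusted p under 0.01, and ranged from 1 to 2 when 1 array was left out. The other gene, Ifnab, lay below both filters and had an adjusted p of 0.021. With the replicate block, 5549 genes were called, 2569 of them higher, against 6314 without it, and all 9 effectors stayed among the higher. The replicate numbers did not pair the arrays, and not every array correlated best with its own number. Cyclic loess moved the median difference over all genes from -0.02 to 0.004. Of 71 other genes followed, 10 had a call that changed under at least 1 alternative, and 0 had a call that reversed its sign. Differences without a call could change sign, as did that of Arih1 (-0.07) with cyclic loess (0.05). Signal near the background guide limits what can be said of the interferon ligands.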
